A study of Mus musculus with 2 samples.

Results

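The genes described here are 10 genes of antigen presentation by the major histocompatibility complex (MHC) of the mouse, chosen by name, out of 32285 genes counted. Class I is represented by 6 of them, the heavy chains H2-K1, H2-D1 and H2-T23, the light chain B2m, the peptide transporter subunit Tap1 and the loading factor Tapbp. Class II is represented by 4 of them, the invariant chain Cd74 and the chains H2-Aa, H2-Ab1 and H2-Eb1. All 10 were found in the gene table, and each had at least 930 unique molecular identifiers (UMIs, counts of captured RNA molecules) in each library.

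RNA of single cells was read from the 5′ ends of transcripts (10x Genomics) in hippocampi of mice aged 4 weeks, in 2 libraries. The mutant library came from mice that carry L389P in Crlf3 (cytokine receptor-like factor 3), and the other library from wild-type mice. Neither group had a treatment, and 4 hippocampi of 2 mice were joined in each library. The tissue was dissociated with enzymes, cleared of debris and myelin, and sorted for cells that exclude the dye 7-AAD. The counts carry no base calls, so the L389P change itself was not checked, and Crlf3 RNA was at 105 UMIs per 1000000 UMIs of a library or class (CPM) in the mutant library, against 101 CPM in the wild-type library. With 1 library per genotype no difference between genotypes was tested, and every interval below is a 95% interval of counting error only.

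Class I molecules are a heavy chain paired with B2m, and they present peptides from a cell's own cytosol to CD8 T cells. The peptides are cut by the proteasome, carried into the endoplasmic reticulum by the TAP transporter and loaded with the help of Tapbp (tapasin). Class II molecules are pairs of an alpha and a beta chain, which travel with the invariant chain Cd74 to endosomes and present peptides from there to CD4 T cells. In the brain, class I is known from endothelium and microglia, and class II from macrophages and dendritic cells at the borders of the tissue, while resting microglia carry little of it.

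After filtering, 5276 cells of the mutant library and 7098 cells of the wild-type library remained, and the median cell had 7385 UMIs in the mutant and 6193 in the wild-type library. Cells were placed by their own marker genes, none of them an MHC gene, and a class name stands for cells that resemble that type by these markers. Microglia were 3241 mutant and 4440 wild-type cells (61.4% and 62.6%), and their 11 markers were all detected in both libraries, at 14749 CPM in sum in mutant microglia and 14719 CPM in wild-type microglia. Border macrophages, the macrophages of the meninges, vessels and choroid plexus, were 17 mutant and 61 wild-type cells, and all 10 of their markers were detected in each. The other classes that reached 20 cells in both libraries were endothelial cells (806 mutant, 812 wild type), astrocytes (486 and 771), the neuron lineage (204 and 164), mural cells (168 and 129) and choroid plexus epithelial cells (154 and 435). The libraries shared 64 cell barcodes, 54 after filtering.

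Of the 10 genes 8 lie on chromosome 17, within 33915899 to 36032855 of the mm10 build, and B2m lies on chromosome 2 at 122147686-122153083 on the plus strand. H2-K1 spans chr17:33996017-34000347 on the minus strand, H2-D1 spans chr17:35262730-35267499 on the plus strand and H2-Aa spans chr17:34282744-34287823 on the minus strand. Sequence before the start of transcription, as RefSeq (GRCm38.p6) places it, was matched for 8 of the 10 genes, and positions count from that start. It is shown for the genes whose levels separated the cell classes most clearly below, in lower case with motifs in capitals. The stretches run from 180 to 6 bases before the start, with 30 bases only for H2-D1 and H2-T23. Those 30 bases lie within the mm10 spans of H2-D1 (above) and H2-T23 (chr17:36029773-36032855). By the annotation that gives these spans they are part of the gene and not sequence before it. The Tapbp stretch, searched but not shown (chr17:33919298-33919472), likewise lies within its mm10 span (chr17:33915899-33929292). Capitals mark GGATTCC (a kappa B core), AANNGAA (the interferon response core, where N is any base), TGACG (the core of the X2 box) and CCAAT (the Y box), each on either strand.
H2-K1, chr17:34000353-34000527, minus strand: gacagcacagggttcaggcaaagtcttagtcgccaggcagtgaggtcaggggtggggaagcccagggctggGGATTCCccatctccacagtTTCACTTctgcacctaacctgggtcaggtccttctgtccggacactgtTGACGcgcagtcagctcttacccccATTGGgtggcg
H2-D1, chr17:35262914-35262943, plus strand: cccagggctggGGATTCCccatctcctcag
H2-T23, chr17:36032806-36032835, minus strand: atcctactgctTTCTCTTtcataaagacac
B2m, chr2:122147507-122147681, plus strand: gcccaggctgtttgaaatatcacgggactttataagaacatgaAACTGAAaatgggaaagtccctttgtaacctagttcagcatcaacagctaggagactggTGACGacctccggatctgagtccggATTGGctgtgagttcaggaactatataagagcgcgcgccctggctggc
H2-Aa, chr17:34287829-34288003, minus strand: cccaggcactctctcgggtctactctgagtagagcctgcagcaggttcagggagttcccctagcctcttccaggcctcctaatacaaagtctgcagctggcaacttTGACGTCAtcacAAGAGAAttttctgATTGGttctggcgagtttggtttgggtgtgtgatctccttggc
H2-Eb1, chr17:34305687-34305861, plus strand: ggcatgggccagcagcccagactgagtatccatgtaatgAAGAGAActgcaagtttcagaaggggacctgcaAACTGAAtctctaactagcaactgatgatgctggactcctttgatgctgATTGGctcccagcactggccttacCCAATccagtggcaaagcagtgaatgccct

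The H2-K1 and H2-D1 stretches share a run of 26 of the 30 bases shown for H2-D1, and the run holds GGATTCC at -109 to -103 in H2-K1 and at -169 to -163 in H2-D1. GGATTCC stood in 2 of the 8 genes and in 2.18% of 32851 promoters searched over the same 180 bases and both strands. AANNGAA stood in 7 of the 8 genes and in 35.3% of all promoters, as ttcactt at -89 to -83 in H2-K1 and as aactgaa at -137 to -131 in B2m. TGACG stood in H2-K1, H2-D1, B2m, Tap1 and H2-Aa, against 14.8% of all promoters, and in H2-Aa its matches on both strands overlap at -74 to -67. CCAAT stood in 7 of the 8 genes and in 27.5% of all promoters. These matches describe letters in these windows and say nothing of binding in these cells.

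The class I genes were read in every major cell class of both libraries, and 8 of them are given here in order of level. Summed over the 6 genes, the level was 9832 CPM in mutant and 10379 CPM in wild-type T or NK cells (14 and 15 cells), and 7381 and 7577 CPM in mutant and wild-type border macrophages. Microglia held 2615 CPM in the mutant and 2608 CPM in the wild-type library, and endothelial cells 2391 and 2263 CPM. Mural cells followed with 708 CPM in each library, then astrocytes with 301 and 299 CPM, choroid plexus cells with 205 and 201 CPM, and the neuron lineage with 120 and 119 CPM. These 8 classes stood in the same order in both libraries. Ependymal cells did not keep 1 place among them, with 253 CPM in the mutant and 520 CPM in the wild-type library (18 and 49 cells).

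H2-K1, a classical heavy chain that presents peptides to CD8 T cells, was at 3938 CPM in mutant and 3779 CPM in wild-type T or NK cells. Border macrophages had 1904 CPM (1646 to 2191) in the mutant and 2110 CPM (1963 to 2265) in the wild-type library, intervals that overlap. Microglia had 488 CPM in the mutant and 496 CPM in the wild-type library, and endothelial cells 459 CPM (440 to 479) and 420 CPM (400 to 440). Microglia and endothelial cells were thus neighbours in the order, and both stood above astrocytes, at 138 CPM in the mutant and 134 CPM in the wild-type library. Mural cells had 125 and 126 CPM of H2-K1 in mutant and wild-type libraries, choroid plexus cells 42.3 and 44.3 CPM, and the neuron lineage 16.8 and 15 CPM. Astrocytes and mural cells do not differ beyond their counting intervals in either library.

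An H2-K1 UMI was found in 89.9% of mutant and 86.4% of wild-type microglia, cells with a median of 7730 and 6355 UMIs. With each cell thinned to 2000 UMIs the shares were 57.8% and 57.4%, a gap much smaller than as counted. The same held for astrocytes, where 57.8% of mutant and 51.1% of wild-type cells had an H2-K1 UMI as counted, and 23.4% and 21.5% after thinning. In the neuron lineage 2.46% of thinned mutant cells and 1.23% of thinned wild-type cells had one.

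H2-D1, the other classical heavy chain, was also high in these immune classes. It was at 3013 CPM in mutant and 3456 CPM in wild-type T or NK cells, and at 3036 and 2795 CPM in mutant and wild-type border macrophages. Among the larger classes the highest was not microglia but endothelium, with 881 CPM in mutant and 848 CPM in wild-type endothelial cells, against 549 and 554 CPM in mutant and wild-type microglia. An H2-D1 UMI was found in 94.3% of mutant and 91.7% of wild-type endothelial cells. Mural cells had 308 CPM in the mutant and 311 CPM in the wild-type library. In the neuron lineage H2-D1 was at 48.8 CPM (40.2 to 58.7) in the mutant and 36.5 CPM (27.6 to 47.4) in the wild-type library, intervals that overlap, and astrocytes had 39.5 and 28.3 CPM.

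**Figure D1:**
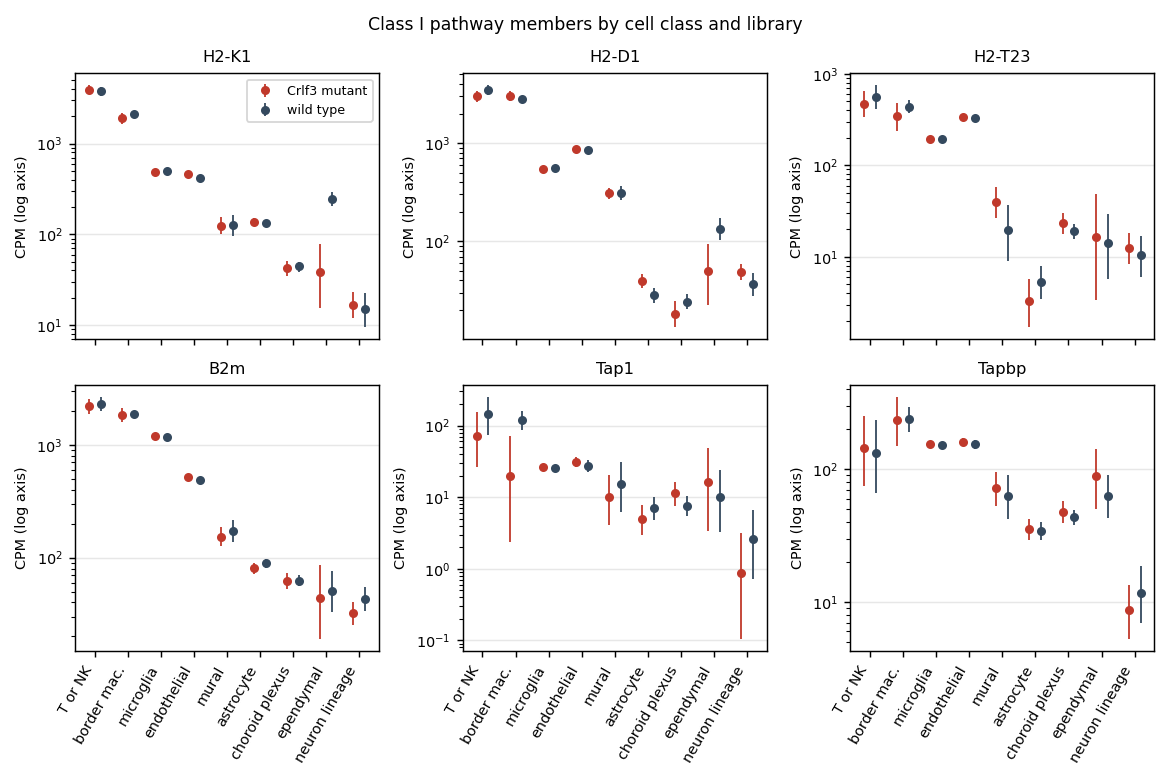
Levels of the 6 class I genes in CPM (log axis) in each cell class, with the mutant library left of the wild-type library and bars for 95% counting intervals. The levels of H2-K1 run from 3938 and 3779 CPM in mutant and wild-type T or NK cells to 16.8 and 15 CPM in the mutant and wild-type neuron lineage, and the genotypes lie close together in the large classes.

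The balance of the classical heavy chains differed by more than 10 times between cell classes, which can be read as a ratio of UMIs within a class, since UMIs count molecules whatever the length of the transcript. Astrocytes held 3.48 H2-K1 UMIs per H2-D1 UMI (2.89 to 4.22) in the mutant and 4.75 (3.93 to 5.78) in the wild-type library. Choroid plexus cells held 2.30 (1.60 to 3.35) in the mutant and 1.82 (1.47 to 2.27) in the wild-type library. At the other end, mural cells held 0.405 and 0.406, and the neuron lineage 0.345 and 0.411, in the mutant and wild-type libraries. Microglia held 0.889 in the mutant and 0.895 in the wild-type library, endothelial cells 0.521 and 0.495, and border macrophages 0.627 and 0.755. T or NK cells held 1.31 in the mutant and 1.09 in the wild-type library. The intervals of astrocytes lay above those of microglia, endothelial cells, mural cells and the neuron lineage in each library.

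Sequence shared between genes was counted beside these ratios. Of the 151-base words of the transcripts, none of H2-K1 and 1.74% of H2-D1 were shared with another gene (H2-Q1), and 0.756% of H2-T23 with Gm7030. These are exact matches over whole transcripts, while reads came from the 5′ ends. They therefore do not show how well the counted reads of the heavy chains were told apart. Microglial RNA carried into other droplets was set beside the ratio too. Astrocytes held microglial marker RNA at 0.417% of its microglial level in the mutant and 0.600% in the wild-type library. Their H2-K1 was 67.6 and 45.1 times, and their H2-D1 17.3 and 8.51 times, the level that this share of microglial RNA would bring in the mutant and wild-type libraries. For H2-K1 in the neuron lineage the same ratio was 4.93 in the mutant and 2.30 in the wild-type library.

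**Figure D2:**
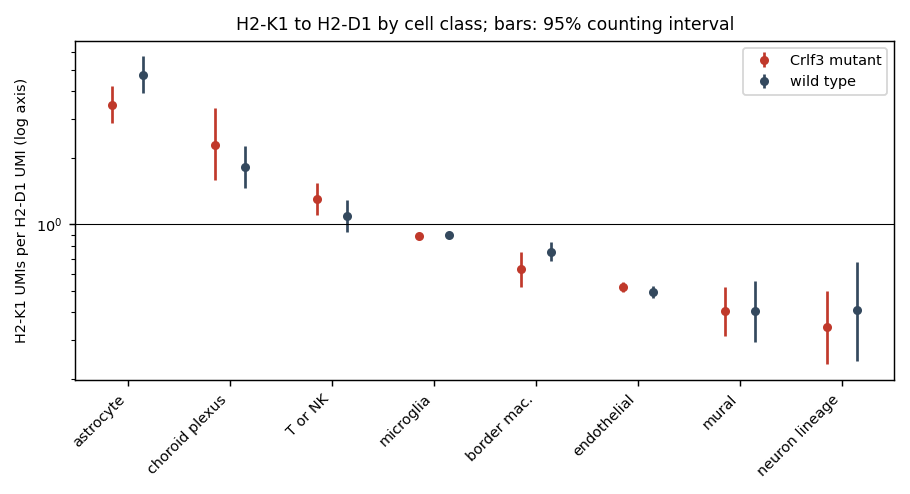
H2-K1 UMIs per H2-D1 UMI (log axis) in each cell class, mutant left of wild type, with 95% counting intervals. Astrocytes stand highest at 3.48 in the mutant and 4.75 in the wild-type library, and mural cells lie at 0.405 and 0.406.

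H2-T23, the gene of the nonclassical heavy chain Qa-1 that is seen by NK cell receptors, was high in immune cells and endothelium. It was at 468 CPM in mutant and 562 CPM in wild-type T or NK cells, 342 and 438 CPM in border macrophages, and 336 and 329 CPM in endothelial cells of the mutant and wild-type libraries. Microglia had 191 CPM in the mutant and 195 CPM in the wild-type library. Astrocytes had 3.30 and 5.36 CPM, so that endothelial over astrocyte levels differed far more for H2-T23 than for H2-K1, whose ratio was 3.34 in the mutant and 3.12 in the wild-type library. The neuron lineage had 12.5 CPM of H2-T23 in the mutant and 10.4 CPM in the wild-type library.

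B2m, the light chain that every class I heavy chain needs to reach the surface, was at 1207 CPM (1193 to 1220) in mutant and 1184 CPM (1171 to 1196) in wild-type microglia. A B2m UMI was found in 98.6% of mutant and 98.4% of wild-type microglia, and in 87.3% of cells of each library after thinning. Endothelial cells had 524 CPM in the mutant and 485 CPM in the wild-type library, and T or NK cells 2197 and 2308 CPM. The order of microglia and endothelium for B2m was the reverse of that for H2-D1. Astrocytes had 80.5 CPM of B2m in the mutant and 89.2 CPM in the wild-type library, and the neuron lineage 32.0 and 43.0 CPM.

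Tap1, a subunit of the peptide transporter, stayed under 50 CPM in every class large enough for a ratio below. It was at 31.0 CPM in mutant and 27.4 CPM in wild-type endothelial cells, and at 26.7 and 25.9 CPM in mutant and wild-type microglia. In border macrophages it rested on 2 UMIs in the mutant (19.5 CPM) and 44 UMIs in the wild-type library (121 CPM), and with 17 mutant cells the class was too small for a ratio between genotypes. Tapbp was at 159 CPM in mutant and 154 CPM in wild-type endothelial cells, and at 154 and 153 CPM in mutant and wild-type microglia. Astrocytes had 35.1 and 34.3 CPM of Tapbp and 4.94 and 7.07 CPM of Tap1, and the neuron lineage 8.64 and 11.7 CPM of Tapbp, in the mutant and wild-type libraries.

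The class II genes were read in a few small classes. Cd74, the chaperone that fills the class II groove until peptides are loaded, was at 41050 CPM in the 2 mutant and 42416 CPM in the 4 wild-type dendritic cells. B cells had 17860 CPM in the mutant and 18345 CPM in the wild-type library (9 and 4 cells). Border macrophages had 9646 CPM (9054 to 10267) in the mutant and 8064 CPM (7775 to 8362) in the wild-type library. Microglia had 78.5 CPM (75.1 to 82.0) and 77.0 CPM (73.8 to 80.2), so that border macrophages held 123 times the microglial Cd74 level in the mutant and 105 times in the wild-type library. The mutant ratio was 65.6 without the 1% of cells highest in class II, and 1 mutant border macrophage held 72.1% of the class II UMIs of its class.

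In most other classes Cd74 was close to nothing. Astrocytes had 0.549 CPM in the mutant and 14.1 CPM in the wild-type library, which was 1.29 CPM without 1 cell. Fibroblasts had 598 CPM in the mutant and 17.4 CPM in the wild-type library (9 and 24 cells), and 1 mutant cell held 65.1% of the class II UMIs of its class. Endothelial cells had 1.09 CPM in the mutant and 1.74 CPM in the wild-type library, with a UMI in 0.496% and 0.616% of cells of a median 5270.5 and 4547.5 UMIs, which gives the background of free RNA. Microglia with a Cd74 UMI were 23.6% in the mutant and 20.9% in the wild-type library as counted, and 9.67% and 9.17% after thinning, above that background. In the neuron lineage no Cd74 UMI was found in either library, which allows a level of up to 1.30 CPM in the mutant and 1.96 CPM in the wild-type library (3 counts). T or NK cells, high in class I, had no UMI of Cd74, H2-Aa, H2-Ab1 or H2-Eb1, with limits of 36.0 and 35.9 CPM in the mutant and wild-type libraries.

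H2-Aa, the alpha chain of the I-A molecule, was at 14658 CPM in mutant and 13429 CPM in wild-type dendritic cells and at 2099 and 1680 CPM in mutant and wild-type border macrophages. In microglia it was at 0.655 CPM in the mutant (17 UMIs) and 1.44 CPM in the wild-type library (43 UMIs). H2-Eb1, the beta chain of I-E, was at 1787 CPM in mutant and 1165 CPM in wild-type border macrophages, and at 0.770 and 1.51 CPM in microglia. H2-Ab1, the beta chain of I-A, was at 1875 and 1377 CPM in mutant and wild-type border macrophages. The border macrophage levels of the 3 chains rest mostly on 4 mutant and 18 wild-type cells with at least 50 class II UMIs. Without them each chain was at 14.8 CPM (1 UMI) in the mutant library. In the wild-type library H2-Aa was then at 62.1 CPM, H2-Ab1 at 86.9 CPM and H2-Eb1 at 29.0 CPM. In microglia H2-Ab1 had 256 UMIs in the mutant (9.86 CPM) and 272 UMIs in the wild-type library (9.13 CPM). The balance of H2-Ab1 to H2-Aa UMIs thus differed between classes, since mutant border macrophages had 192 of H2-Ab1 and 215 of H2-Aa, and wild-type ones 500 and 610. An H2-Ab1 UMI was found in 6.73% of mutant and 4.93% of wild-type microglia, against 0.339% and 0.518% with an H2-Aa UMI.

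The ratio of invariant chain to class II chains, summed over each class, also differed between classes. Microglia held 6.96 Cd74 UMIs per UMI of the 3 chains in the mutant and 6.37 in the wild-type library. Border macrophages held 1.67 and 1.91, B cells 2.62 and 2.97, and dendritic cells 1.12 and 1.16, in the mutant and wild-type libraries. In each library the ratio was highest in microglia and lowest in dendritic cells among these 4 classes. Without border macrophages of at least 50 class II UMIs, the other 43 wild-type cells held 260 Cd74 UMIs. They held 15 UMIs of H2-Aa, 21 of H2-Ab1 and 7 of H2-Eb1. The other 13 mutant cells held 81 Cd74 UMIs and 1 UMI of each chain. The border macrophage ratios thus describe mostly their cells high in class II. Across border macrophages thinned to 2000 UMIs, Cd74 and H2-Ab1 had a correlation of 0.942 over 13 mutant and 0.946 over 56 wild-type cells, given as a description of cells that share a library. The mutant value rests on few cells, since 1 cell held 72.1% of the class II UMIs of mutant border macrophages.

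**Figure D3:**
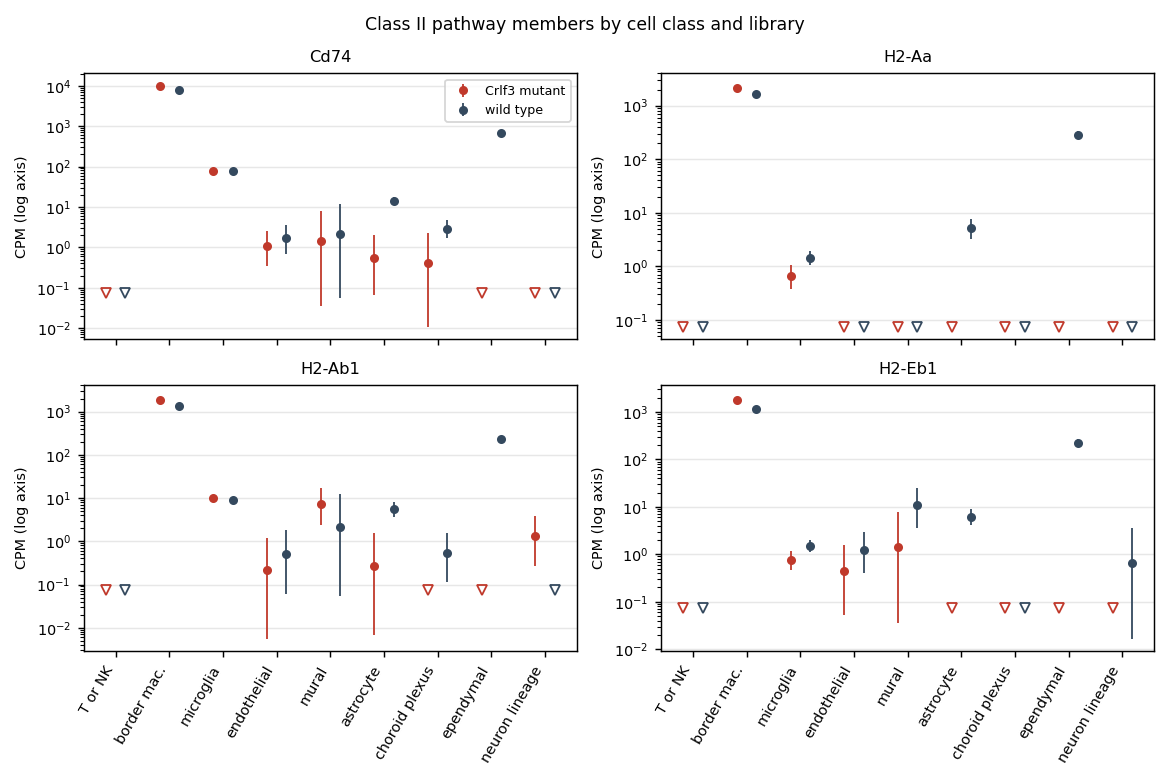
Levels of the 4 class II genes in CPM (log axis) in each cell class, mutant left of wild type, with 95% counting intervals and open triangles at the bottom edge for a count of 0. Cd74 stands at 9646 and 8064 CPM in mutant and wild-type border macrophages, against 78.5 and 77.0 CPM in mutant and wild-type microglia.

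Class II RNA was held by few cells. The 4 genes had 9189 UMIs in the mutant and 21837 UMIs in the wild-type library in all, and Cd74 was at 146 CPM over all mutant cells and 271 CPM over all wild-type cells. Microglia held 25.4% of the class II UMIs of the mutant library and 12.1% of those of the wild-type library, although they were 61.4% and 62.6% of the cells. Dendritic cells held 19.4% and 15.4%, border macrophages 17.2% and 20.4%, and B cells 7.41% and 1.33%, in the mutant and wild-type libraries. Cells that met no marker set held 23.3% in the mutant and 46.1% in the wild-type library. Cells of these small classes and of no class thus held most class II UMIs in each library.

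Most microglia had no class II UMI at all, 72.0% in the mutant and 75.4% in the wild-type library. The highest 1% of microglia held 25.5% of the class II UMIs of mutant microglia (33 cells) and 32.6% of those of wild-type microglia (45 cells). The highest 5% held 54.3% in the mutant and 59.2% in the wild-type library. Microglia with at least 10 class II UMIs were 27 mutant and 32 wild-type cells, and the highest single cell had 130 UMIs in the mutant and 121 in the wild-type library.

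These microglia were also high in class I. H2-K1 was at 703 CPM in the mutant and 939 CPM in the wild-type cells with at least 10 class II UMIs, against 485 and 491 CPM in the other mutant and wild-type microglia. H2-D1 was at 988 and 1216 CPM, against 543 and 547 CPM, and B2m at 1758 and 1726 CPM, against 1200 and 1177 CPM. Markers of border macrophages summed to 111 CPM in these mutant cells, below the 184 CPM of the other mutant microglia, and to 274 CPM in these wild-type cells, above the 198 CPM of the others. Their own microglial markers were lower, at 10993 CPM in the mutant and 9925 CPM in the wild-type cells, against 14796 and 14776 CPM in the other mutant and wild-type microglia, and the part of these shifts was not tested. At least 4 border macrophage markers were found in none of the 27 mutant and 4 of the 32 wild-type cells. Among the other microglia they were found in 0 of 3214 mutant and 3 of 4408 wild-type cells. The part of such cells in the class I levels was not tested. Microglia with at least 10 class II UMIs had a median depth of 9919 UMIs in the mutant and 9329 in the wild-type library. The others had 7711.5 and 6332 UMIs, and the part of depth in passing 10 UMIs was not tested.

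Border macrophages were split as well. No class II UMI was found in 7 of 17 mutant and 17 of 61 wild-type border macrophages, and at least 100 class II UMIs per 10000 UMIs were found in 2 mutant and 19 wild-type cells. In the mutant library 1 cell with 1137 class II UMIs held 72.1% of the class total, so the mutant Cd74 level of 9646 CPM rests on it. In the wild-type library the highest cell had 484 UMIs and held 10.8%. Without the cells of at least 50 class II UMIs, 4 mutant and 18 wild-type cells, Cd74 was at 1198 CPM in the mutant and 1076 CPM in the wild-type library. H2-K1 in the same remaining cells was at 1568 CPM in the mutant and 2118 CPM in the wild-type library.

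Lyve1 marks a subset of border macrophages that lie along vessels, and it splits class II in other tissues. Cells without a Lyve1 UMI had 12973 CPM of Cd74 in the mutant library (12 cells) and 9171 CPM in the wild-type library (47 cells). Cells with one had 547 CPM in the mutant (5 cells, 15 UMIs) and 4844 CPM in the wild-type library (14 cells). H2-K1 went the same way, at 2280 CPM in mutant and 2369 CPM in wild-type cells without Lyve1, against 875 and 1356 CPM in those with it. B2m was 1.94 times higher in mutant and 1.40 times higher in wild-type cells without Lyve1 than in those with it. With 5 mutant cells that carry Lyve1, and 1 cell that holds most of the class II UMIs, the mutant split is a description of these cells.

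The genotypes were set side by side as log2 ratios of mutant over wild type, with 10 CPM added to each level. A ratio was taken where a class had 20 cells in each library and the higher of the 2 levels reached 50 CPM and 30 UMIs. This left 18 of 60 pairs of a gene and a class, 6 in microglia, 5 in endothelial cells, 4 in mural cells, 2 in astrocytes and 1 in choroid plexus cells. None of the 18 passed 1.5 times in either direction. Over all genes measured, 0.124% passed 1.5 times in microglia, 0.0281% in endothelial cells, 5.16% in mural cells, 0.167% in astrocytes, 0.765% in choroid plexus cells and 0.736% in the neuron lineage, where no MHC gene was measured. A count of 0 among so few pairs is thus near these backgrounds.

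The 18 log2 ratios ran from -0.17, for B2m in mural cells, to 0.16, for Tapbp in mural cells, with 10 above 0 and 8 below. The median was -0.01 over the 6 genes in microglia, where the median of all 3233 measured genes was 0.01, and 0.06 over the 5 genes in endothelial cells, where that of all genes was 0.01. Counting intervals held 0 in 15 of the 18. H2-K1 in endothelial cells had a log2 ratio of 0.13 (0.04 to 0.22), a level 1.09 times that of the wild type. B2m in endothelial cells had 0.11 (0.02 to 0.19), a level 1.08 times that of the wild type. B2m in microglia had 0.03 (0.01 to 0.05). In microglia with Xist UMIs and no Y-linked UMI, B2m had 0.07 (0.04 to 0.10). In microglia with Y-linked UMIs and no Xist UMI it had -0.02 (-0.06 to 0.02). In endothelial cells split the same way, H2-K1 had 0.18 and 0.24, and B2m 0.09 and 0.13. All these intervals cover counting error only and say nothing of the spread between animals.

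In microglia the other members were as close, with log2 ratios of -0.02 for H2-K1, -0.01 for H2-D1, -0.02 for H2-T23, 0.00 for Tapbp and 0.03 (-0.05 to 0.10) for Cd74. At this depth the counting intervals of these microglial ratios exclude a change of 1.5 times between these 2 libraries. In astrocytes H2-K1 had 0.03 and B2m -0.13 (-0.33 to 0.06). In mural cells the intervals were wide, such as -0.46 to 0.43 for H2-K1, and smaller changes were not detectable at this depth.

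**Figure D4:**
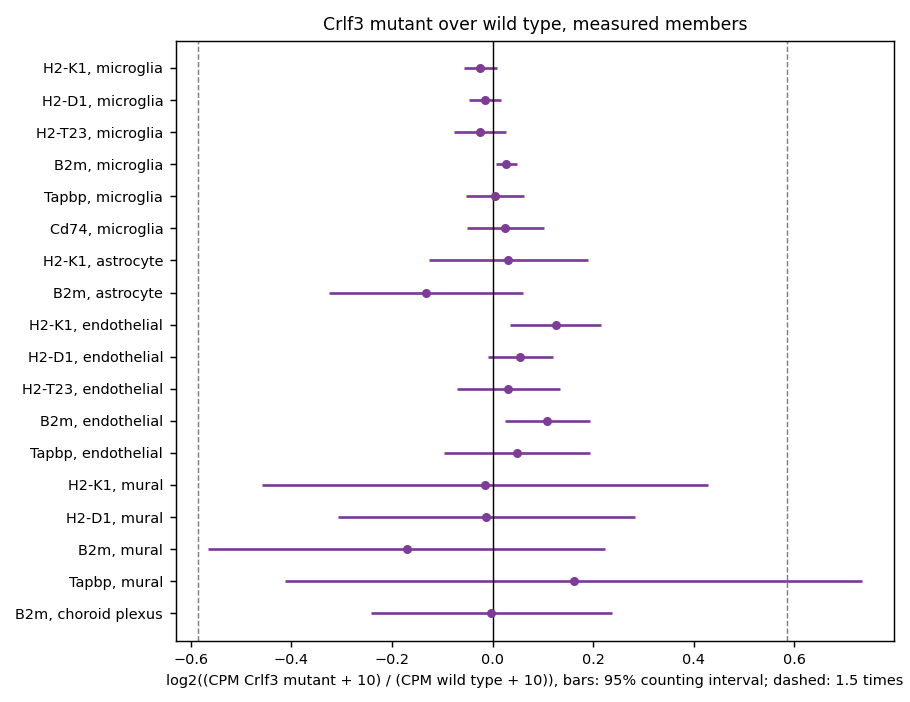
Log2 ratios of mutant over wild type for the 18 measured pairs of a gene and a class, with 95% counting intervals and dashed lines at 1.5 times. All points lie between -0.17 and 0.16, and mural cells have the widest intervals.

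Genes that work with the MHC were read from 8 lists, of class I chains, peptide loading, the immunoproteasome, class II and its exchange factors, endosomal processing, transcription and control, costimulation and the interferon response. Of 163 measured pairs of a list gene and a class, 5 passed 1.5 times, none of them among 43 in microglia, 44 in endothelial cells or 16 in astrocytes. They were 2 of 26 in mural cells, where 5.16% of all genes passed, 2 of 16 in choroid plexus cells (0.765% of all genes) and 1 of 18 in the neuron lineage (0.736%). In microglia the lists had medians from -0.04 to 0.02, against 0.01 for all genes. These medians do not show single genes. Cd83, 1 of 3 measured costimulation genes, was at 1125 CPM in mutant and 1444 CPM in wild-type microglia. Its log2 ratio was -0.36 (-0.38 to -0.34), within 1.5 times. Psmb8, an immunoproteasome subunit, was at 164 CPM in mutant and 171 CPM in wild-type microglia. H2-DMa, which helps peptides replace the Cd74 fragment in class II, was at 161 CPM in mutant and 164 CPM in wild-type microglia. H2-DMa was at 107 CPM in mutant and 314 CPM in wild-type border macrophages (11 and 114 UMIs), below microglia in the mutant and above them in the wild-type library. Its level separated microglia from border macrophages far less than Cd74 did. Ciita, the master activator of class II transcription, was at 145 CPM in mutant and 169 CPM in wild-type B cells (4 and 2 UMIs) and at 43.6 and 164 CPM in dendritic cells (1 and 7 UMIs).

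The list genes past 1.5 times were in 3 classes, and 4 of the 5 are described. Ifitm3, an interferon-induced membrane protein, was at 118 CPM in the mutant and 52.5 CPM in the wild-type choroid plexus cells, a log2 ratio of 1.03. Its UMIs lay unevenly, since 31.2% of mutant and 32.6% of wild-type cells had one and the highest cell had 61 UMIs in the mutant and 26 in the wild-type library. B2m in the same cells was at 62.3 CPM in the mutant and 62.5 CPM in the wild-type library, a log2 ratio of -0.00.

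In mural cells Nfyc, a subunit of the factor that binds CCAAT, was at 70.2 CPM in the mutant and 34.8 CPM in the wild-type library (49 and 16 UMIs), a log2 ratio of 0.84 (0.19 to 1.49). Creb1, which binds the TGACG element, was at 51.6 and 30.4 CPM (36 and 14 UMIs), with an interval that holds 0. In the neuron lineage Ctss, a lysosomal protease that trims Cd74, was at 14.3 CPM in the mutant and 52.2 CPM in the wild-type library, a log2 ratio of -1.36. Of the 80 wild-type Ctss UMIs 46 were in 1 cell. Microglial markers summed to 103 CPM in the mutant and 193 CPM in the wild-type neuron lineage, and their part in the Ctss ratio was not tested.

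Microglia vary in state, and the MHC genes were read across 3 states set on other genes. Cells with UMIs of at least 8 of 20 interferon-induced genes, none of them a member, were 21 mutant and 39 wild-type microglia. H2-K1 was at 832 CPM in mutant and 772 CPM in wild-type interferon-high microglia, 1.72 and 1.57 times the level of the other microglia of the same library. H2-D1 was 1.85 times higher in the mutant and 1.72 times in the wild-type library, H2-T23 1.93 and 2.21 times, and B2m 1.5 and 1.40 times. All 3 heavy chains and the light chain were thus above the other microglia in each library. Tap1 was 1.42 times higher in the mutant and 4.18 times in the wild-type library, on 9 and 33 UMIs.

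Cd74 in interferon-high microglia was at 130 CPM in the mutant and 617 CPM in the wild-type library, 1.67 and 8.66 times the other microglia. Much of the mutant value was 1 cell: without the cell highest in class II in each library, the ratio was 0.899 in the mutant and 6.68 in the wild-type library. H2-K1 was 1.49 times higher in the mutant and 1.60 times in the wild-type library without those cells. The interferon-high cells were deeper, with a median of 10540 UMIs in the mutant and 7391 UMIs in the wild-type library, against 7716 and 6347 UMIs in the other microglia, and the part of depth was not tested.

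Chemokine-high microglia, with at least 50 UMIs of Ccl3 and Ccl4 per 10000, were 371 mutant and 816 wild-type cells. Over all microglia Ccl4 itself was at 1301 CPM in the mutant and 1987 CPM in the wild-type library, a log2 ratio of -0.61. Cd74 was at 122 CPM in mutant and 136 CPM in wild-type chemokine-high cells, 1.68 and 2.17 times the cells in none of the 3 states, which had 72.7 CPM in the mutant and 62.6 CPM in the wild-type library. H2-K1 was 0.959 times that of the cells in no state in the mutant and 0.956 times in the wild-type library, and B2m 1.02 and 1.0 times. H2-D1 was at 1.12 times in the mutant and 1.08 times in the wild-type library. The chemokine state thus went with Cd74, less with H2-D1, and not with H2-K1 or B2m. The part of the few microglia high in class II in the Cd74 ratios was not tested. Heat shock-high microglia, 151 mutant and 319 wild-type cells, had H2-K1 at 0.855 times the cells in no state in the mutant and 0.721 times in the wild-type library, and B2m at 0.827 and 0.856 times. H2-T23 in them was at 1.02 and 1.16 times. With the gate at 10 instead of 20 UMIs of Hspa1a and Hspa1b per 10000, H2-K1 was at 1.03 times in the mutant and 0.909 times in the wild-type library, so that its direction in the mutant differed between the gates.

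**Figure D5:**
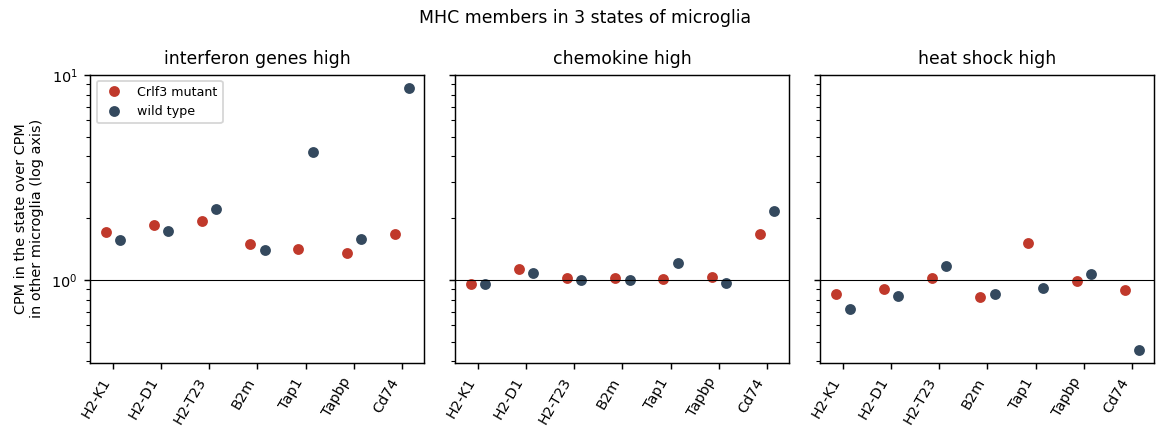
Levels of MHC genes in interferon-high, chemokine-high and heat shock-high microglia relative to other microglia of the same library (all those not interferon-high for the interferon state, and cells in none of the 3 states for the others; log axis), mutant left of wild type. H2-K1 in interferon-high cells is 1.72 times higher in the mutant and 1.57 times in the wild-type library, and Cd74 in chemokine-high cells 1.68 and 2.17 times.

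Endothelial cells were split by vessel segment from marker UMIs. Arterial cells, 7 in the mutant and 11 in the wild-type library, had 1235 CPM (949 to 1579) and 1002 CPM (762 to 1292) of H2-K1. Capillary cells, 771 mutant and 765 wild-type, had 438 CPM and 389 CPM, so arterial cells stood 2.82 times higher in the mutant and 2.57 times in the wild-type library. H2-D1 was 1.72 and 1.81 times higher in arterial than in capillary cells, and H2-T23 1.18 and 1.25 times, in the mutant and wild-type libraries. The arterial gap was thus widest for H2-K1 among the heavy chains in each library.

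Ependymal cells, the ciliated lining of the ventricles, were 18 in the mutant and 49 in the wild-type library. H2-K1 was at 38.5 CPM (15.5 to 79.3) in the mutant, on 7 UMIs, and at 247 CPM (205 to 295) in the wild-type library. Without 1 wild-type cell with at least 50 class II UMIs the wild-type level was 237 CPM, still above the mutant interval. The same cell held all of the Cd74 UMIs of wild-type ependymal cells, whose 682 CPM became 0 without it. Without that cell H2-D1 was also lower in the mutant, at 49.5 CPM against 114 CPM in the wild-type library (9 and 54 UMIs). The other class I genes went the other way. B2m was at 44.0 and 36.0 CPM (8 and 17 UMIs) and Tapbp at 88.0 and 61.4 CPM (16 and 29 UMIs). Tap1 was at 16.5 and 6.35 CPM and H2-T23 at 16.5 and 12.7 CPM, each on 6 UMIs or fewer. The mutant class was under 20 cells, so no ratio was taken.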

How the data were processed

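Per the labels and the submitters' processing notes, the authors ran Cell Ranger 6.1.1 on reads of 151 bases with an mm10 reference. Partek is named without its use. Each deposited matrix gives whole UMI counts of genes in the barcodes that the authors kept, not normalized, with no annotation of cells. Each library was the only one of its genotype, grouped by the labels, and no map ties cells to animals. No other per-sample value was present or used. The mutant matrix held 43103469 UMIs in 5720 barcodes and the wild-type matrix 51328178 UMIs in 7713 barcodes.

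Cells with at least 500 genes, 1000 UMIs and no more than 10% mitochondrial UMIs were kept, 5353 mutant and 7246 wild-type. Scrublet (scanpy 1.11.5, expected rate 0.06) called 77 doublets (1.44%) in the mutant and 148 (2.04%) in the wild-type library, which were removed, and doublets it missed stay in. A cell joined 1 of 17 classes when it had UMIs of at least 4 markers of that class and at least 0.3 of the marker share typical of it, and no other class passed. Cells that passed for several classes were called mixed (73 mutant, 103 wild-type) and those that passed for none were left unplaced (61 and 76). Near the threshold (0.2 to 0.4) lay 51 mutant and 88 wild-type microglia, and 1 and 10 border macrophages.

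Counts were summed per class and library and given as CPM of the class's UMIs, with exact Poisson intervals. Shares of cells have Clopper-Pearson intervals, and cells were thinned to 2000 UMIs to compare shares. These intervals, and the limit of 3 counts given for a count of 0, cover counting error only. Log2 ratios used a pseudocount of 10 CPM, which understates the change of low genes, and a ratio past 1.5 times was counted. No test and no p-value is given, since there is 1 library per genotype. The ratio step was checked on simulated counts with known changes. Other tools were Python 3.11.15, numpy 2.4.6, scipy 1.17.1, pandas 2.3.3 and leidenalg 0.10.2.

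The 10 genes and all lists were chosen with earlier results of these data known. The members are named in each class with 20 cells per library, list genes where they passed 1.5 times or give the level of their list, and the 5 genes most alike for 4 members, except that 1 list gene and 1 of the genes most alike are not reported here. Of 112 list genes 110 matched 1 symbol, in 13 lists. Gates for microglial states were set after seeing the data. Alternatives were other filters, gates, Leiden clusters, pseudocounts, minimums, thinning, scalings, cells split by sex-linked RNA, and cells high in class II left out.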

Additional observations from a re-analysis of the deposited data

Results flagged for a closer look

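Class II RNA also stood in cells outside the classes compared above. The cells that met no marker set held 2145 class II UMIs in the mutant library (61 cells) and 10056 in the wild-type library (76 cells). The endothelial cells, which should lack these genes, held 8 in the mutant (806 cells) and 14 in the wild-type library (812 cells). Most of the unplaced UMIs lay in 2 mutant cells, with 2078 UMIs, and 11 wild-type cells, with 9962 UMIs. At least 3 dendritic cell markers were found in 1 of these mutant and 2 of these wild-type cells, and at least 3 border macrophage markers in 1 mutant and 8 wild-type cells. Cells that passed for several classes added 5 mutant cells and 1 wild-type cell with at least 50 class II UMIs each.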

How the results depend on the processing

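No paired analysis was possible because each genotype has 1 library. For the 18 reported pairs of a gene and a class, 251 log2 ratios were recomputed under 15 alternatives, whether or not a pair still met the minimums. Of these 228 stayed within the reported counting interval, and 23 did not. They ranged from -0.49 to 1.01, and 2 passed 1.5 times, both in mural cells with Y-linked RNA (H2-K1 0.95 and Tapbp 1.01, which was below the minimums there).

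Pairs that met the minimums afresh under each alternative were counted separately. The count of MHC ratios past 1.5 times, 0 of 18 as reported, was 1 of 22 with Leiden classes (H2-K1 in the neuron lineage, -0.82), 6 of 54 with no minimum, 1 of 16 in cells with Xist (H2-D1 in the neuron lineage, 0.65) and 1 of 16 in cells with Y-linked RNA (H2-K1 in mural cells). The count for list genes, 5 of 163 as reported, was 3 with a pseudocount of 50 CPM, 31 of 481 with no minimum, 2 of 135 in cells with Xist and 9 of 148 in cells with Y-linked RNA. With "no minimum" the count admits genes with few UMIs by construction, and for the others the cause was not tested.

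The share of class II UMIs in the highest 1% of microglia was 17.5% in mutant microglia with Xist. In wild-type microglia it was 28.3% with the stricter gate, 29.1% with Leiden classes, 36.3% after thinning and 25.9% with Xist. Cd74 in border macrophages over microglia was 65.6 times in the mutant without the 1% of cells highest in class II, 63.6 times in mutant cells with Y-linked RNA, 4.04 times in mutant cells with Xist (1 border macrophage) and 11.3 times in wild-type cells with Xist. H2-K1 in endothelial cells over astrocytes stayed within its spread under every alternative run.

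With the interferon gate at 6 genes, Cd74 in interferon-high over other microglia was 3.62 times in the mutant and 5.25 times in the wild-type library, and Tap1 in the wild type 2.26 times. With the heat shock gate at 20 UMIs per 10000, Cd74 was 0.894 times that of cells in none of the 3 states in the mutant. It was 0.456 times in the wild-type library. With the gate at 10, Cd74 was 1.05 times in the mutant and 1.13 times in the wild-type library, so its direction differed between the gates. H2-K1 at that gate was 1.03 times in the mutant and 0.909 times in the wild-type library. These gates were chosen after seeing the data. Border macrophages, ependymal cells and lymphocytes are few, so their levels rest on few cells. The class II levels of mutant border macrophages and wild-type ependymal cells rest mostly on 1 cell each.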

Other observations

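Each library holds cells with Xist RNA and cells with Y-linked RNA, so both pools held mice of both sexes. Microglia with Xist UMIs and no Y-linked UMI numbered 1391 in the mutant and 2015 in the wild-type library, and those with Y-linked UMIs and no Xist 1086 and 1247. H2-K1 was at 453 CPM in mutant and 482 CPM in wild-type microglia with Xist, and at 531 and 522 CPM in mutant and wild-type microglia with Y-linked RNA. Among choroid plexus cells with RNA of 1 of these kinds, 74 had Y-linked RNA and 1 had Xist in the mutant library, and 210 and 3 in the wild-type library. Class II in wild-type border macrophages was uneven in the same way: Cd74 was at 798 CPM in 6 cells with Xist, none with 50 class II UMIs, and at 10652 CPM in 29 cells with Y-linked RNA, 12 of them with 50 or more. In the mutant library the 7 border macrophages with Y-linked RNA had 5269 CPM of Cd74. Within these pools the sex of an animal and the animal itself cannot be told apart.

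The genes whose levels ran most alike over the 6 classes with 20 cells in each library (12 points, log2(CPM + 10), 7802 genes) included Tfeb, Tmbim6, Selenop and Tmem243 for H2-K1, with Pearson r from 0.971 to 0.951. For B2m they were Herpud1, Rap1b, Entpd1, Ecscr and Jade2, from 0.981 to 0.972, and for Cd74 they were Cxcl10, Serpinf1, Tnf, Ptgs1 and Trim8, from 0.977 to 0.966. H2-Aa was too low in these classes to be matched, with 5.14 CPM at most. Over 10 classes that reached 9 cells in both libraries, a set chosen after seeing the data (20 points, 9539 genes), B2m ran with Psmb8 at 0.974 and Psmb9 at 0.971, H2-K1 ran with B2m at 0.934, and Cd74 ran with H2-Ab1 and H2-Aa at 0.961 each. Beyond the members, H2-Aa ran with Mgl2 at 0.928, Cd209b at 0.928 and Susd1 at 0.922. The points share libraries and classes, so these values are descriptions.

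Psmb8, an immunoproteasome subunit, was at 420 CPM in mutant and 610 CPM in wild-type T or NK cells, 91.9 and 93.8 CPM in endothelial cells, and 1.92 and 3.0 CPM in astrocytes of the mutant and wild-type libraries. H2-Q7, a nonclassical heavy chain, was at 816 CPM in mutant and 945 CPM in wild-type T or NK cells, against 205 and 168 CPM in border macrophages. Fcgrt, the class I-like receptor that carries antibodies and albumin, was at 664 CPM in mutant and 695 CPM in wild-type endothelial cells, against 110 and 114 CPM in microglia. Cd1d1, which presents lipids, was the class I-like gene that was measured in the neuron lineage, at 90.7 CPM in the mutant and 96.5 CPM in the wild-type library.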
